A study of Mus musculus with 8 samples.

Results

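Midkine (Mdk), pleiotrophin (Ptn) and 6 of their receptors (Ptprz1, Sdc2, Sdc3, Sdc4, Ncl and Lrp1) were chosen by name, 8 of the 31053 genes in the count tables, and all 8 were detected. Their transcripts were counted in single cells of the mouse dentate gyrus, the part of the hippocampus in which new granule neurons are born in the adult. Cells came from 8-week-old male Nestin-GFP mice, a heterozygous reporter line in which regulatory elements of the Nestin gene drive green fluorescent protein, and live GFP+ cells were sorted. Controlled cortical impact, a model of traumatic brain injury (TBI), was applied to the left hemisphere, Control mice underwent a sham craniotomy, and the dentate gyrus of the operated side was taken 15 days later. The animals of each condition, whose number differs between the labels and the study's methods, were pooled into 1 library, so the Control library and the TBI library have no replicate, no test between conditions was possible, and every interval below covers counting error only.

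Midkine and pleiotrophin form a family of heparin-binding growth factors of their own. Both bind the chondroitin sulfate chains of PTPRZ1, a receptor-type tyrosine phosphatase, and the heparan sulfate chains of the syndecans, and binding of pleiotrophin is known to reduce the phosphatase activity of PTPRZ1. Nucleolin, mainly a protein of ribosome production in the nucleolus, and LRP1, an endocytic receptor of the LDL receptor family, have also been reported to bind midkine. In the developing brain, midkine is known from proliferating neural precursors and pleiotrophin from glia and vessels.

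In GRCm38/mm10 the ligand genes lie on the minus strand, Mdk at chr2:91929805-91932297 and Ptn at chr6:36714929-36810220. Ptprz1 lies on the plus strand of the same chromosome as Ptn, at chr6:22875502-23052916. The syndecan genes are Sdc2 at chr15:32920723-33034935, Sdc3 at chr4:130792537-130826319 and Sdc4 at chr2:164424247-164443887. Ncl is at chr1:86344719-86359400 and Lrp1 at chr10:127538161-127621148. Antisense transcripts are annotated across Sdc3 and Lrp1, and small nucleolar RNAs within introns of Ncl.

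After filtering, 3049 Control and 5036 TBI cells remained, with medians of 6928 and 5663 unique molecular identifiers (UMIs, 1 per captured transcript) per cell. Clustering and marker genes gave 9 major populations: cycling neural stem cells (NSC), radial glia-like (RG-like), neuron-like and astrocyte-like cells, oligodendrocyte precursors (OPC), oligodendrocytes, endothelial cells, mural cells and microglia. NSC, neuron-like, astrocyte-like and mural cells were divided further, which gave 16 types in all. The summed markers of each of these populations and types were highest in the cells that bear its name. Since the clusters were named by these same markers, this does not test the names. Cells called doublets made up 1.21% of the Control and 2.14% of the TBI library, and 3 cell barcodes occurred in both. Levels are given as CPM: the UMIs of a gene in all cells of a type, per 1000000 UMIs there of every gene but Malat1. Since the assay tags the 3′ end of each transcript once, these levels carry no term for gene length. Some neuronal marker sums, over both libraries, differed little between neighbouring types. Late neuroblast markers summed to 4870 CPM there against 4748 CPM in immature granule neurons. Immature granule neuron markers summed to 1894 CPM against 1654 CPM in late neuroblasts. Early neuroblast markers summed to 14189 CPM against 12338 CPM in late neuroblasts.

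Midkine was highest in the young end of the neurogenic lineage. Early neuroblasts, which follow the dividing progenitors, were named by markers such as Eomes and Neurod1. They held 927 CPM of Mdk in Control (95% Poisson interval 897 to 959, 321 cells) and 932 CPM in TBI (905 to 959, 568 cells). RG-like cells, the Hes5+ progenitors, followed at 766 CPM (729 to 805) in Control and 710 CPM (678 to 744) in TBI. S-phase cycling NSC had 744 and 701 CPM, and mitotic NSC 704 and 682 CPM, in Control and TBI. The levels of RG-like, S-phase and mitotic cells overlapped in their intervals. Early neuroblasts taken as a whole, though not each of their clusters, lay above all 3 in both libraries.

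The level then dropped along the neuronal lineage. Late neuroblasts had 318 CPM of Mdk in Control and 354 CPM in TBI, and immature granule neurons 147 and 161 CPM. Early neuroblasts held 1.21 times the level of RG-like cells in Control (interval 1.14 to 1.29) and 1.31 times in TBI (1.24 to 1.39). They held 2.91 times the level of late neuroblasts in Control (2.65 to 3.22) and 2.63 times in TBI (2.43 to 2.86). Late neuroblasts held 2.17 times (1.83 to 2.58) and 2.19 times (1.91 to 2.53) the level of immature granule neurons. Early neuroblasts were not uniform: their 2 clusters had 1175 and 674 CPM in Control and 1178 and 633 CPM in TBI, so the difference between these clusters was of the same size in both libraries. The lower cluster, 441 of the 889 cells, lay below mitotic NSC (704 and 682 CPM), the lowest of the progenitor types.

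Outside this lineage Mdk stayed below the level of progenitors and early neuroblasts, though not below that of all young neurons. Stem-like astroglia, the Hopx+ and Thbs4+ cluster, had 208 CPM in Control and 312 CPM in TBI, and mature astrocytes 137 and 183 CPM. Fibroblast-like mural cells, of which only 12 and 18 were captured, had 345 and 383 CPM from 14 and 29 UMIs. Oligodendrocytes (13.0 and 9.82 CPM), endothelial cells (12.5 and 11.9 CPM), smooth muscle cells (9.72 and 6.16 CPM) and microglia (5.28 and 8.91 CPM) were at the bottom of the order.

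**Figure D1:**
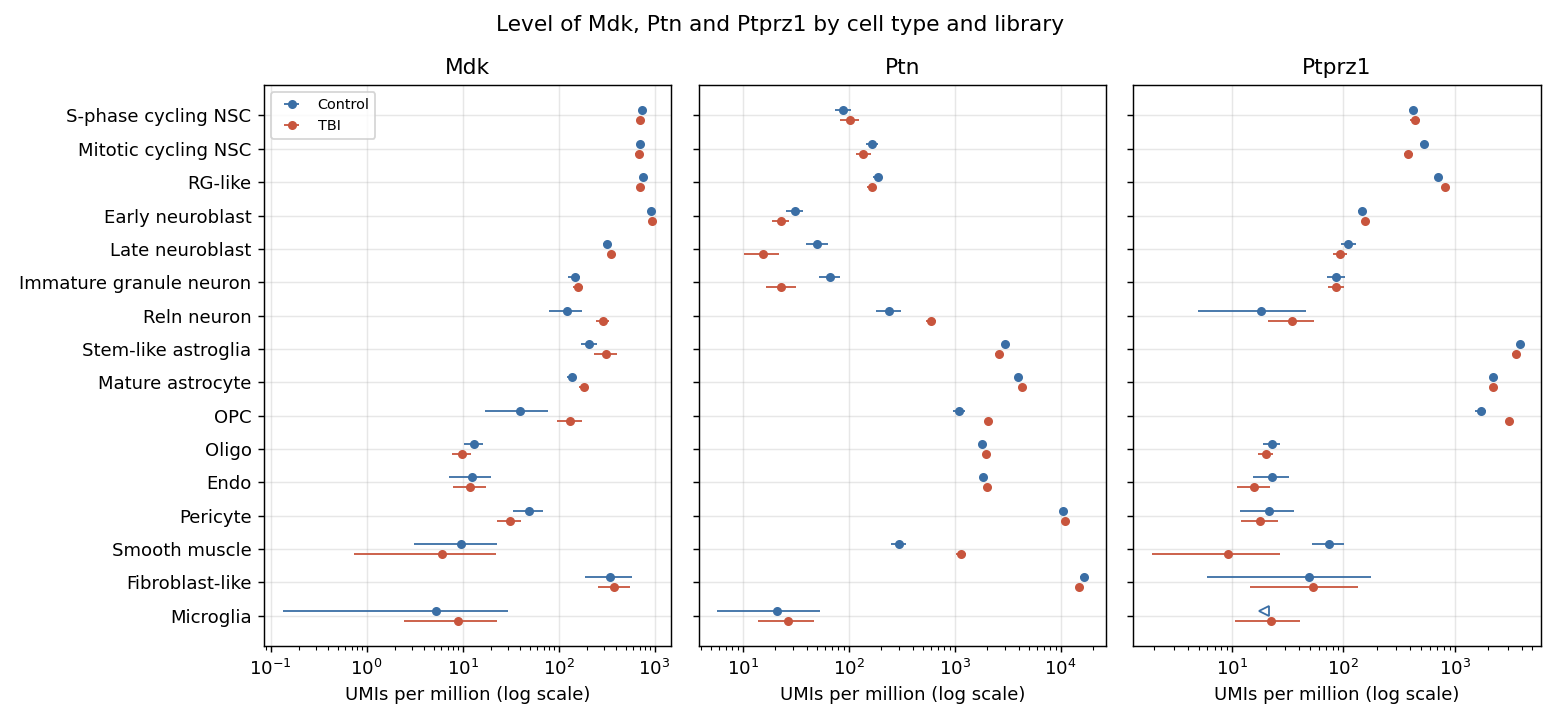
Levels of the ligands Mdk and Ptn and of the receptor Ptprz1 in the 16 cell types, in CPM on log axes, for the Control and the TBI library, with exact Poisson 95% intervals (counting error only), where an open triangle marks the upper bound of a level of 0. Mdk peaked in early neuroblasts at 927 CPM in Control and 932 CPM in TBI, where Ptn was at 30.9 and 22.8 CPM, and Ptn exceeded 10000 CPM in pericytes and fibroblast-like cells of both libraries.

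Pleiotrophin was arranged differently, with its highest levels in cells of the vessel wall. Fibroblast-like cells had 16552 CPM of Ptn in Control (15324 to 17852) and 14857 CPM in TBI, and pericytes, the contractile cells around capillaries, had 10519.9 CPM (6829 UMIs) and 10898 CPM (17556 UMIs). Mature astrocytes followed at 3940.0 and 4333 CPM, stem-like astroglia at 2986 and 2603 CPM, endothelial cells at 1851 and 2038 CPM and oligodendrocytes at 1800.4 and 1976 CPM. Endothelial cells and oligodendrocytes could not be told apart in this order.

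The mural cells were divided by Ptn. Pericytes held 35.4 times the level of smooth muscle cells in Control (30.1 to 41.8) and 9.51 times in TBI (8.58 to 10.6). They held 5.68 times the level of endothelial cells in Control (5.43 to 5.95) and 5.35 times in TBI (5.18 to 5.52). At 2000 UMIs per cell, 98.3% of Control and 99.6% of TBI pericytes had a Ptn UMI, against 17.5% and 43.5% of smooth muscle cells. Smooth muscle cells consisted of 2 clusters that differed in Ptn, and pericytes held 105 and 29.8 times the level of the Acta2-rich cluster and 6.25 and 3.03 times that of the other. In the other cluster, pericyte and smooth muscle markers were nearly equal in Control (15119 and 14917 CPM). Pericyte markers led there in TBI (23351 and 7771 CPM).

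Glial Ptn also varied within a type. The 4 mature astrocyte clusters ranged from 933 to 5429 CPM in Control and from 1195 to 5661 CPM in TBI. In the neurogenic lineage Ptn was low, at 187 and 165 CPM in RG-like cells and 30.9 and 22.8 CPM in early neuroblasts. Early neuroblasts therefore held 0.165 times the RG-like level in Control and 0.138 times in TBI, the reverse of Mdk. Microglia had 21.1 and 26.7 CPM, and 3.8% and 4.2% of them had a Ptn UMI at 2000 UMIs per cell. That share was like the 4.7% and 4.0% found in early neuroblasts, and whether it was background was not tested.

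The ligands were shared out unequally between types. Mdk was 96.8% of the Mdk and Ptn UMIs of early neuroblasts in Control and 97.6% in TBI, and 80.3% and 81.1% in RG-like cells. In immature granule neurons it was 68.9% and 87.5%, and in Reln neurons 33.8% and 32.6%, so UMIs of both ligands were counted there. At 2000 UMIs per cell, both were seen together in 2 of 146 Control and 0 of 255 TBI immature granule neurons. The same held for 0 of 23 Control and 7 of 78 TBI Reln neurons. In Control, 2 cells held 43 of the 85 Ptn UMIs of immature granule neurons. Doublet calls made up 0% of Control and 17.2% of TBI Reln neurons, whose mural markers summed to 90.4 and 1357 CPM. The part of other cells in these shares was not tested. The Mdk share was 6.5% and 10.7% in stem-like astroglia, 3.4% and 4.0% in mature astrocytes and 0.5% and 0.3% in pericytes. The split thus fell between the astroglial cells and the progenitors with which they share Vim and Hes5. RG-like cells held 5.59 times (Control) and 3.89 times (TBI) the Mdk level of mature astrocytes and 0.0476 and 0.0382 times their Ptn level.

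PTPRZ1, the phosphatase receptor of both ligands, was an astroglial and OPC transcript. Stem-like astroglia had 3852 CPM of Ptprz1 in Control (3679 to 4031) and 3567 CPM in TBI (3298 to 3852), and mature astrocytes 2209 and 2233 CPM. The stem-like level was 1.74 times that of mature astrocytes in Control (1.65 to 1.84) and 1.60 times in TBI (1.47 to 1.74). OPC had 1713 CPM in Control and 3097 CPM in TBI, which was 75.3 and 154 times the level of oligodendrocytes (22.7 and 20.1 CPM). In the OPC cluster, 13 of 26 Control and 13 of 56 TBI cells held no more OPC than oligodendrocyte marker UMIs. The other cells, led by OPC markers, had 4102 and 4039 CPM of Ptprz1, beside 3852 and 3567 CPM in stem-like astroglia. This division was made after the values were seen.

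In the lineage Ptprz1 decreased with differentiation and did not share the peak of Mdk. RG-like cells had 714 and 827 CPM, S-phase NSC 421 and 441 CPM, and mitotic NSC 526 and 384 CPM. Early neuroblasts had 147 and 158 CPM, 0.206 and 0.191 times the RG-like level. Immature granule neurons were at 86.6 and 86.1 CPM. The receptor was low in pericytes (21.6 and 18.0 CPM) and endothelial cells (22.7 and 15.9 CPM), both of which were rich in Ptn.

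Because a cell's UMI count limits which genes are seen, pairs of members were counted after thinning each cell to 2000 UMIs, which kept 2697 Control and 4295 TBI cells. Mdk and Ptprz1 were seen together in 42.2% of Control and 38.8% of TBI RG-like cells, in 30.9% and 25% of NSC, in 16.5% and 19.7% of early neuroblasts, and in 19.7% and 22.5% of astrocyte-like cells. Ptn and Ptprz1 were seen together in 85.6% and 86.4% of astrocyte-like cells. Thinning kept 631 of 812 Control and 418 of 745 TBI astrocyte-like cells, so their shares leave out those with fewer than 2000 UMIs. Of microglia, in which both genes were near 0, 0% (Control) and 2.8% (TBI) had a Ptprz1 UMI at that depth. Among the 9 major populations, the largest shares with both Mdk and Ptprz1 were thus in RG-like cells, and those with both Ptn and Ptprz1 in astrocyte-like cells.

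The 3 syndecans, transmembrane carriers of heparan sulfate, differed in the cells that held them. Sdc2 was highest in pericytes (650.1 CPM in Control and 675 CPM in TBI), fibroblast-like cells (542 and 449 CPM) and smooth muscle (401 and 548 CPM), and was at 176 and 170.0 CPM in mature astrocytes. Of the pericytes, 66.7% and 70.8% had both a Ptn and an Sdc2 UMI at 2000 UMIs. Sdc2 was nearly absent from the neuronal lineage, at 11.3 and 11.2 CPM in early neuroblasts.

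Among whole types, Sdc3 also led in pericytes, at 299 CPM in Control (258 to 344) and 351 CPM in TBI (322 to 381). OPC came next with 168 and 276 CPM, then endothelial cells with 67.5 and 80.8 CPM. The OPC cells led by OPC markers (13 in Control and 43 in TBI) had 423 and 369 CPM. Among the syndecans, Sdc3 had the highest level in neuroblasts and immature granule neurons. It was at 40.6 and 40.7 CPM in early neuroblasts and 56.2 and 65.9 CPM in immature granule neurons. Oligodendrocytes had only 5 and 15 UMIs (0.881 and 1.73 CPM).

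Sdc4 was highest in mature astrocytes but was not confined to astroglia. Mature astrocytes had 381 CPM in Control (357 to 406) and 423 CPM in TBI (392 to 455), and stem-like astroglia 243 and 241 CPM. RG-like cells held 35.2 and 32.8 CPM, which was 0.0925 and 0.0776 times the level of mature astrocytes. Microglia (95.1 and 265 CPM), smooth muscle (212 and 142 CPM) and fibroblast-like cells (73.9 and 172 CPM) also held Sdc4. In TBI the level of microglia was above that of stem-like astroglia. Early neuroblasts (1.88 and 2.16 CPM) and immature granule neurons (1.56 and 1.73 CPM) were close to zero.

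Nucleolin transcripts were found in every type, with the narrowest range of the 8 genes. RG-like cells had 807 CPM of Ncl in Control and 888 CPM in TBI, mitotic NSC 678 and 832 CPM, and S-phase NSC 670.4 and 830 CPM. Microglia, at 771 and 695 CPM, lay above both NSC types in Control and below them in TBI. Mature astrocytes were lowest, at 176 and 191 CPM, and RG-like cells held 4.59 and 4.65 times that level. Stem-like astroglia held 2.10 and 2.01 times the level of mature astrocytes, so the astroglial clusters differed in Ncl in both libraries.

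Transcripts of LRP1 were scarce in endothelial cells (4.40 and 8.39 CPM) and oligodendrocytes (4.94 and 4.39 CPM) and were broad elsewhere. Among whole types, Lrp1 was highest in fibroblast-like cells (1256 and 660.3 CPM, from 51 and 50 UMIs). It stood at 391 and 372 CPM in pericytes, 342 and 550.0 CPM in OPC and 264 and 262 CPM in mature astrocytes. The OPC cells led by OPC markers had 728 and 708 CPM. In the lineage Lrp1 was higher in early neuroblasts than in RG-like cells and did not drop afterwards as Mdk did. The level went from RG-like cells (36.2 and 35.1 CPM) to early neuroblasts (90.8 and 84.3 CPM), a ratio of 2.51 in Control and 2.40 in TBI. Immature granule neurons had 128 and 146 CPM.

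**Figure D2:**
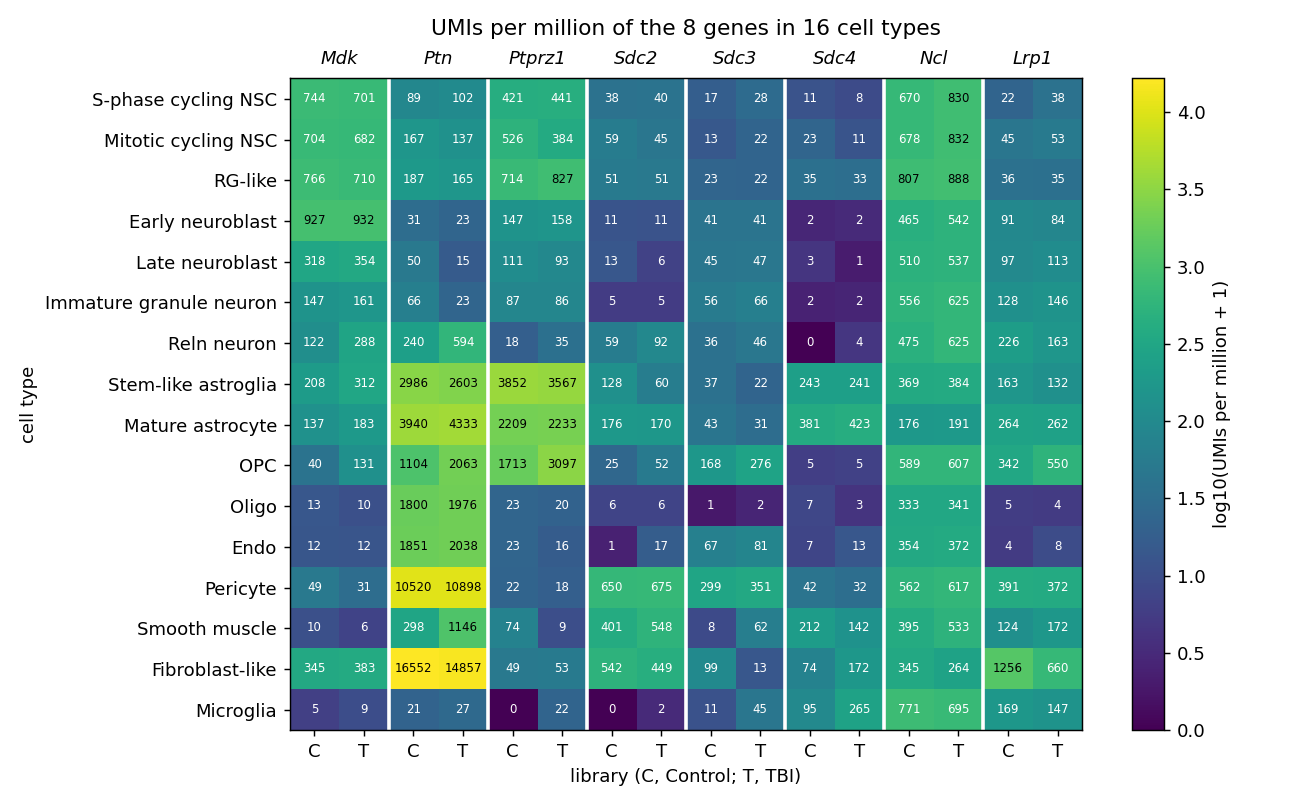
Level of each of the 8 genes in the 16 cell types of each library, in CPM, written in each field and coloured by log10(CPM + 1). Mdk was high in progenitors and early neuroblasts, Ncl in progenitors and microglia, Ptn and Sdc2 in pericytes and fibroblast-like cells. Ptprz1 was high in the astroglial types and OPC, and Sdc4 in the astroglial types, microglia and smooth muscle.

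Because the types differ in number and RNA content, the pool of each transcript in the sorted cells was divided differently from its levels. Neuron-like cells held 49.4% of the Mdk UMIs of the Control library and 60.4% of those of the TBI library, NSC 25% and 14.6%, and RG-like cells 18.7% and 18.6%. Ptn UMIs lay in astrocyte-like cells (33.4% and 14.4%), oligodendrocytes (31.1% and 32.6%) and mural cells (23.5% and 39.0%). Astrocyte-like cells held 63.2% and 44.0% of Ptprz1 and 75.3% and 64.0% of Sdc4.

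These shares moved with the makeup of the libraries. Astrocyte-like cells were 26.6% of Control and 14.8% of TBI cells, and mural cells 9.2% and 14.0%. Over all cells, Ptprz1 was at 491 CPM in Control and 329 CPM in TBI, while within mature astrocytes it was at 2209 and 2233 CPM. Ptn over all cells was at 1414 and 1763 CPM. A sort and 1 library per condition stand behind these proportions, so no change in a proportion was tested.

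**Figure D3:**
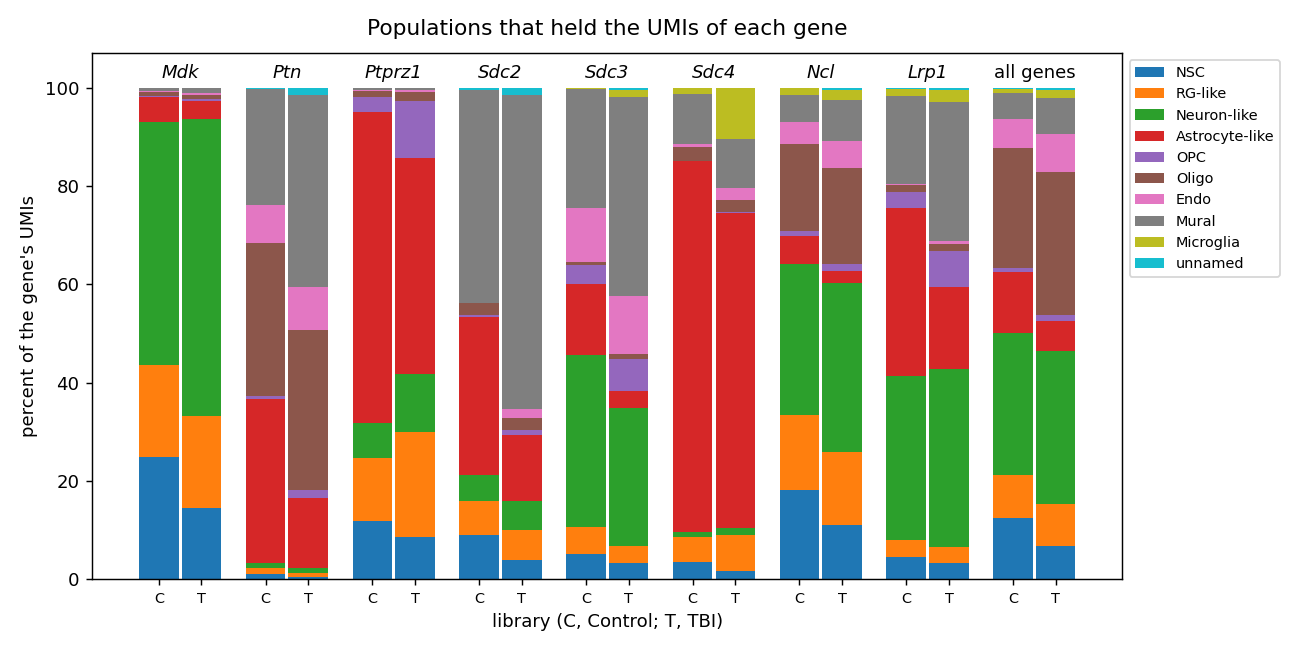
Percent of all UMIs of each gene that lay in each of the 9 major populations and in unnamed cells, for the Control (C) and TBI (T) libraries, beside the same for all genes. Neuron-like cells held 49.4% and 60.4% of Mdk, and the share of Ptn in mural cells was 23.5% in Control and 39.0% in TBI.

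For the effect of injury, TBI and Control levels were compared within populations. A gene was counted where it had at least 100 UMIs in both libraries together and 10 in each, and a ratio of at least 1.5 in either direction was called. Among the 72 pairs of a member and a major population, 50 could be counted, 6 were higher in TBI and 1 was lower. The higher pairs lay in OPC (4 pairs, 15.6% of all genes higher), mural cells (1 pair, 6.74%) and microglia (1 pair, 4.47%). The lower pair lay in mural cells, where 4.81% of all genes were lower. In the 4 populations of the astroglial and neuronal lineage (NSC, RG-like, neuron-like and astrocyte-like), 29 of 32 pairs could be counted and none was called. Their log2 ratios ran from -0.46 to 0.48. The background over all genes there was 1.23% called higher and 1.8% lower in NSC, 1.49% and 0.921% in RG-like cells, 0.856% and 0.967% in neuron-like cells, and 0.852% and 2.01% in astrocyte-like cells.

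The remaining major populations without a called member were oligodendrocytes, where 0.953% of genes were called higher and 0.825% lower, and endothelial cells, with 1.46% and 0.964%. Over the 16 types, 80 of 128 pairs could be counted, 9 were higher in TBI and 3 lower. The higher pairs lay in OPC (15.6% of all genes higher), microglia (4.47%), smooth muscle (10.8%), Reln neurons (3.49%) and stem-like astroglia (3.5%). The lower pairs lay in late neuroblasts (1.68% of all genes lower), immature granule neurons (1.82%) and fibroblast-like cells (13.5%). No member was called in S-phase NSC (1.54% of genes higher, 1.29% lower), mitotic NSC (2.09% and 2.16%), early neuroblasts (0.916% and 1.07%), mature astrocytes (1.08% and 1.83%) or pericytes (2.94% and 1.82%).

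Within the lineage, Mdk differed little between the libraries. The log2 ratio of Mdk was 0.03 in neuron-like cells. In RG-like cells 766 CPM in Control stood against 710 CPM in TBI, a ratio of 0.927 (0.866 to 0.993). Ncl was slightly higher in TBI in NSC (log2 ratio 0.30, interval 0.21 to 0.40), neuron-like cells (0.19, 0.13 to 0.25) and RG-like cells (0.14). The receptor Ptprz1 was higher in RG-like cells (0.21, 0.12 to 0.31) and lower in NSC (-0.19, -0.32 to -0.07), with mitotic NSC at -0.45 (-0.63 to -0.28). The differences of Ncl and Ptprz1, and that of Mdk in RG-like cells, exceeded counting error but were below the 1.5-fold limit.

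Astrocyte-like cells had more Mdk in TBI, with 432 UMIs in Control and 356 in TBI and a log2 ratio of 0.39 (0.19 to 0.60). All 5 astroglial clusters had the higher level in TBI: 156 against 202 CPM, 152 against 179 CPM, 38 against 55 CPM and 238 against 296 CPM in the mature clusters, and 208 against 312 CPM in the stem-like cluster. These clusters share the same Control and TBI library and are not separate measures. Only the stem-like cells passed the limit, with a log2 ratio of 0.59 (0.09 to 1.07) on 101 and 57 UMIs and a background of 3.5% called higher and 4.33% lower. At 2000 UMIs per cell their ratio was 0.02. Neuron-like markers summed to 100 CPM in Control and 184 CPM in TBI in astrocyte-like cells. In mature astrocytes they summed to 74.6 and 169 CPM, and in stem-like astroglia to 229 and 312 CPM. Over astrocyte-like cells as a whole, NSC markers (147 and 122 CPM) and RG-like markers (978 and 956 CPM) were lower in TBI. RG-like markers were slightly higher in TBI within each type, at 848 and 879 CPM in mature astrocytes and 1624 and 1649 CPM in stem-like astroglia. NSC markers were lower in TBI in stem-like astroglia (344 and 230 CPM) but nearly equal in mature astrocytes. The part of such transcripts in the Mdk difference was not tested. Ptn in astrocyte-like cells differed by 0.14 (0.10 to 0.18) and Sdc4 by 0.18.

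**Figure D4:**
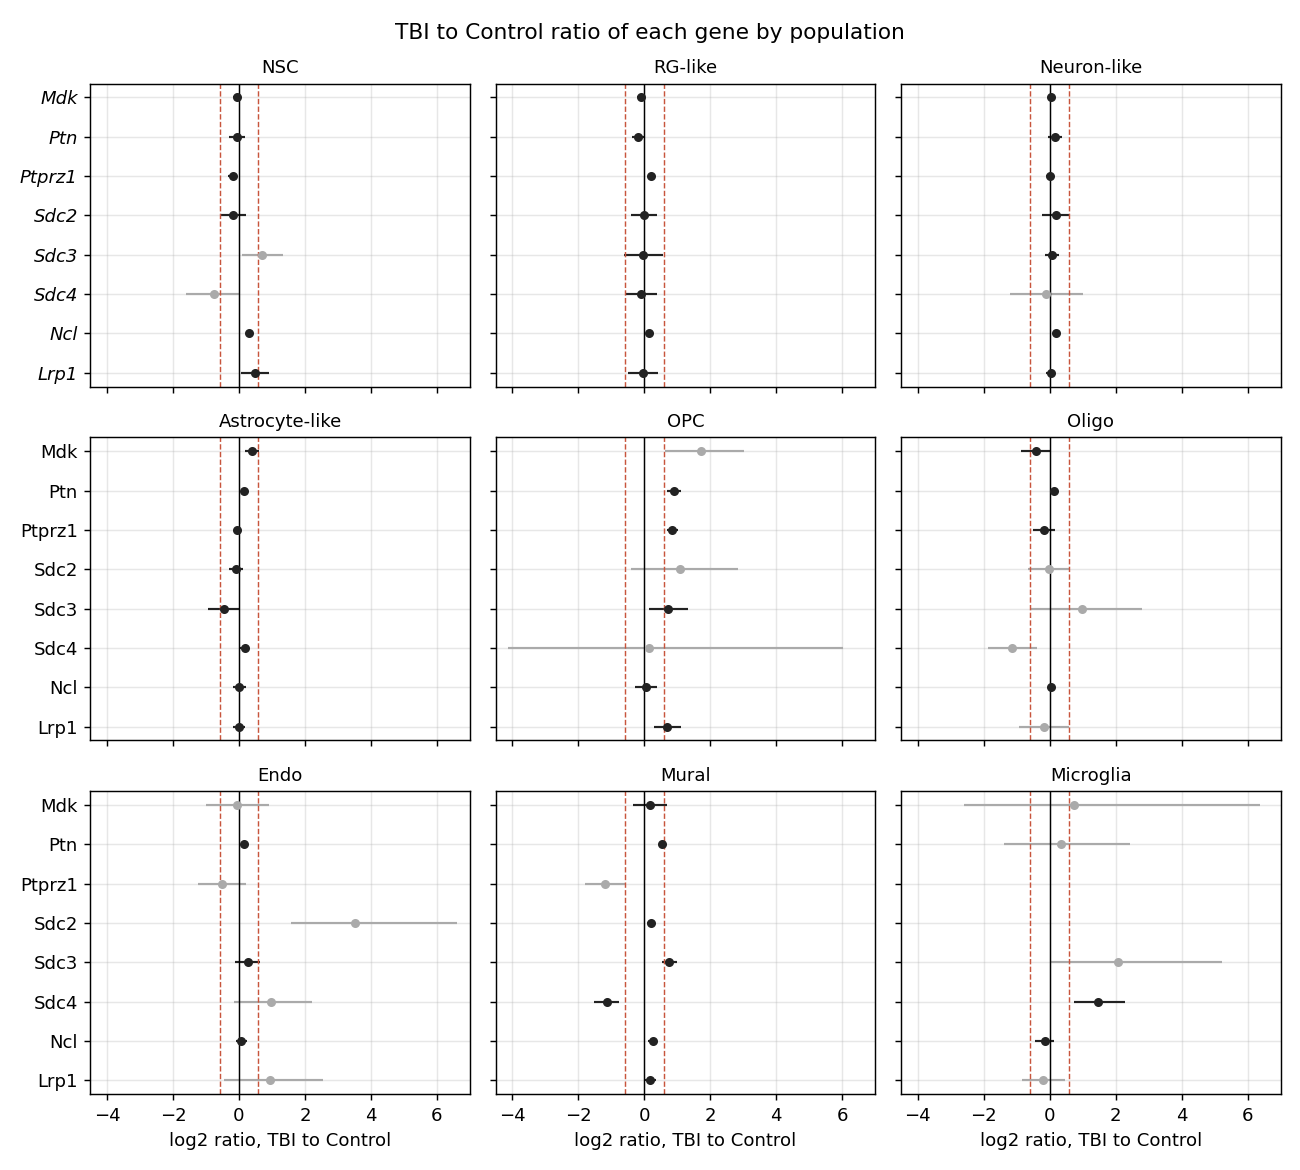
TBI to Control log2 ratio of each of the 8 genes in the 9 major populations, with exact conditional binomial 95% intervals (counting error only) and dashed lines at the 1.5-fold limit in each direction. Grey points had too few UMIs to be counted, and Ptprz1 and Sdc2 of microglia, at 0 in Control, are left out. The points of NSC, RG-like, neuron-like and astrocyte-like cells lay between -0.46 and 0.48 where the gene was counted, and the ratios past the limit lay in OPC, mural cells and microglia.

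Of the 6 higher pairs, 4 were in OPC. In 26 Control and 56 TBI cells, Ptn was at 1104 and 2063 CPM (log2 ratio 0.90, 0.68 to 1.12), Ptprz1 at 1713 and 3097 CPM (0.85, 0.68 to 1.03), Sdc3 at 168 and 276 CPM (0.72, 0.14 to 1.32) and Lrp1 at 342 and 550.0 CPM (0.69, 0.29 to 1.10). Called genes were frequent in this population, with 15.6% of 1115 genes higher and 10.9% lower. The OPC cluster also differed in its makeup. Its 8 oligodendrocyte markers summed to 27045 CPM in Control, with 1 marker at 0, and to 6876 CPM in TBI, whereas its 8 OPC markers summed to 5995 and 7604 CPM.

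The cluster was therefore divided by whether a cell held more OPC or more oligodendrocyte marker UMIs, a division chosen after these values were seen. Cells led by OPC markers numbered 13 in Control and 43 in TBI. Among them Ptn was at 2620 and 2777 CPM (log2 ratio 0.08, -0.14 to 0.32) and Ptprz1 at 4102 and 4039 CPM (-0.02, -0.21 to 0.16). Sdc3 was at 423 and 369 CPM (-0.20) and Lrp1 at 728 and 708 CPM (-0.04). None of these 4 genes passed the limit in the OPC-led cells. The 13 and 13 cells led by oligodendrocyte markers had 198 and 170.0 CPM of Ptn and 285 and 600 CPM of Ptprz1.

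**Figure D5:**
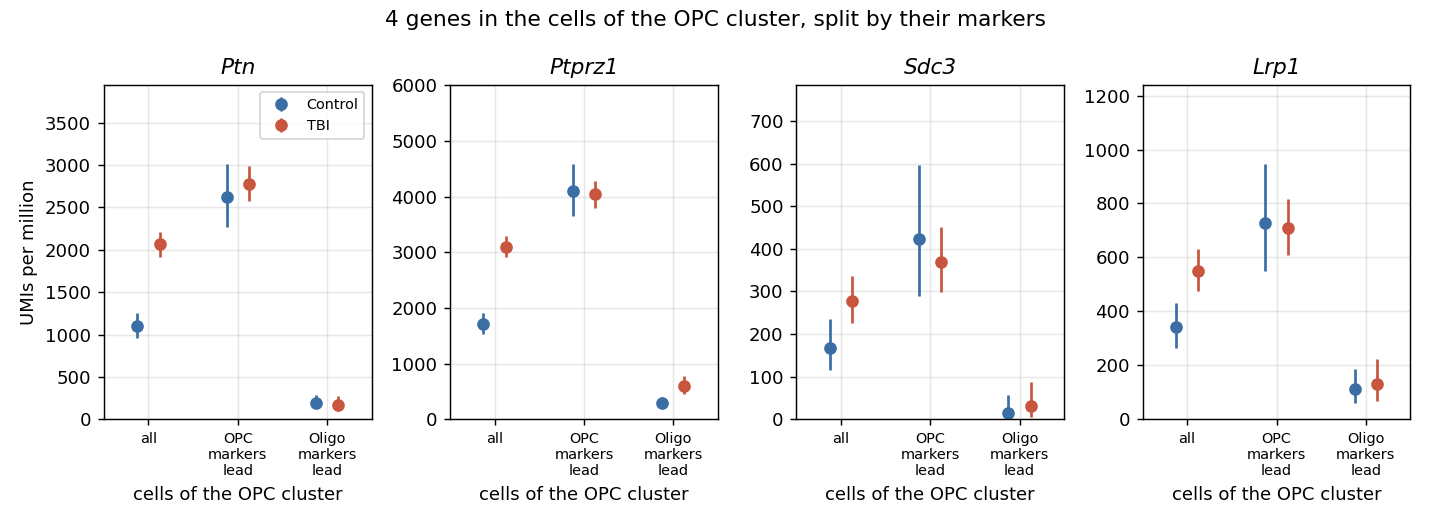
Levels of Ptn, Ptprz1, Sdc3 and Lrp1 in CPM in the OPC cluster and in its cells led by OPC or by oligodendrocyte markers, for Control and TBI, with exact Poisson 95% intervals (counting error only). Over the whole cluster Ptprz1 was at 1713 and 3097 CPM, and in the 13 Control and 43 TBI cells led by OPC markers at 4102 and 4039 CPM.

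In mural cells as a whole Sdc3 was higher in TBI (log2 ratio 0.76, 0.53 to 0.99) and Sdc4 lower (-1.14, -1.51 to -0.78), beside 6.74% of all genes called higher and 4.81% lower. Pericytes were 187 of the 281 Control mural cells and 543 of the 707 TBI mural cells. Within pericytes Sdc3 was at 299 and 351 CPM, Sdc4 was at 41.6 and 32.3 CPM with too few UMIs (27 and 52) to be counted, and Ptn had a ratio of 1.036 (1.007 to 1.066), where over all mural cells its log2 ratio was 0.55 (0.51 to 0.58). Neither Sdc3 nor Ptn passed the limit within pericytes.

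The type named smooth muscle, after Acta2 and Myh11 among other markers, showed a larger Ptn difference. The 64 Control cells held 153 UMIs (298 CPM) and the 62 TBI cells 372 UMIs (1146 CPM), a log2 ratio of 1.95 (1.67 to 2.23). The type was made of 2 clusters, which were looked at singly after these values were seen. The cluster richer in Acta2 (51 Control and 40 TBI cells) had 99.97 and 366 CPM of Ptn, a log2 ratio of 1.87 (1.34 to 2.42). The other, with Rgs5 among its leading genes (13 and 22 cells), had 1683 and 3592 CPM, a log2 ratio of 1.09 (0.77 to 1.43), and held 70.6% and 75.8% of the Ptn UMIs of the type. The level was thus higher in TBI in each cluster. The 6 pericyte markers also differed, summing to 2075 and 7109 CPM in the first cluster, with Kcnj8 and Abcc9 at 0 in Control, and to 15119 and 23351 CPM in the second. The 6 smooth muscle markers summed to 41703 and 32683 CPM in the first and to 14917 and 7771 CPM in the second. In the second cluster the 2 marker sums were thus nearly equal in Control, and pericyte markers led in TBI. In the whole type 10.8% of genes were called higher and 5.21% lower. Its oligodendrocyte markers summed to 1274 and 243 CPM, astrocyte markers to 1575 and 2322 CPM and endothelial markers to 259 and 484 CPM, and their part in the result was not tested. Smooth muscle cells were 64 of the 281 Control and 62 of the 707 TBI mural cells. Sdc4 in smooth muscle was at 212 and 142 CPM and was not called.

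Microglia had more Sdc4 in TBI, at 95.1 CPM in Control (18 UMIs in 38 cells) and 265 CPM in TBI (119 UMIs in 89 cells). The log2 ratio was 1.48 (0.76 to 2.28), beside 4.47% of 918 genes called higher and 5.23% lower. At 2000 UMIs, 11.5% of Control and 33.8% of TBI microglia had an Sdc4 UMI. The 8 microglial markers summed to 30215 and 25093 CPM, and no other population's list exceeded 500 CPM in either library. The shares rest on 26 Control and 71 TBI cells and on UMIs that also make up the summed level. They are therefore not a separate measure.

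Low Ptn in young neurons and the small Reln+ cluster gave further large ratios that rested in part on few cells. In late neuroblasts Ptn was at 50.4 CPM in Control and 15.4 CPM in TBI (log2 ratio -1.71, background 0.969% higher and 1.68% lower), and in immature granule neurons at 66.3 and 23.1 CPM (-1.52, background 1.25% higher and 1.82% lower). In Control, 2 cells held 40 of the 74 Ptn UMIs of late neuroblasts and 2 cells held 43 of the 85 of immature granule neurons. Without the 2 highest cells of each library the ratios were -0.87 in late neuroblasts and -1.11 in immature granule neurons, still past the limit. Over 10 alternative settings they ranged from -1.82 to -0.58 and from -2.00 to -0.045. The -0.58 of late neuroblasts, no longer past the limit, was the value without called doublets. Doublet calls made up 1.86% of Control and 0% of TBI late neuroblasts. Reln neurons had 122 and 288 CPM of Mdk (1.24) and 240 and 594 CPM of Ptn (1.31), beside 3.49% of genes called higher and 2.55% lower. Doublet calls made up 17.2% of the 87 TBI Reln neurons and none of the 28 in Control, and their 8 mural markers summed to 90.4 and 1357 CPM. Without the called doublets the ratios were -0.40 for Mdk and -0.02 for Ptn. Lrp1 in the 12 and 18 fibroblast-like cells had a log2 ratio of -0.93, where 14.4% of genes were called higher and 13.5% lower.

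The 34 other genes of the pathway were fixed as 5 lists: further reported receptors, PTPRZ1 partners, PTPRZ1 substrates, sulfate chain enzymes and adaptors. At most 3 of them were called in any population. In NSC, neuron-like and astrocyte-like cells 18, 26 and 23 could be counted and none was called. In RG-like cells 1 of 18 was higher, where 1.49% of all genes were, namely Itga6, a laminin-binding integrin subunit, at 24 and 38.7 CPM (log2 ratio 0.69, 0.18 to 1.22). Among the finer types, Nrcam, a neuronal adhesion molecule, was lower in immature granule neurons (60.9 and 40.5 CPM, -0.59). It was 1 of 14 counted, where 1.82% of all genes were lower. Tnc, an extracellular matrix protein, was lower in mature astrocytes (72.5 and 47.1 CPM, -0.62), 1 of 23 counted, where 1.83% of all genes were lower. OPC had 2 of 7 lower, where 10.9% of all genes were lower, and mural cells 3 of 14 higher, where 6.74% of all genes were higher.

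The leading pathway gene differed by population. Ncam1, the neural cell adhesion molecule, led in NSC (559 CPM over both libraries), neuron-like cells (785 CPM), astrocyte-like cells (518 CPM) and oligodendrocytes (547 CPM). Ctnnb1, which encodes beta-catenin, led in RG-like (456 CPM) and endothelial cells (841 CPM). Fyn, a Src-family kinase, led in OPC (1822 CPM), Itgb1 in mural cells (785 CPM) and Sdcbp, which encodes the syndecan-binding protein syntenin, in microglia (365 CPM).

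Across the 16 types of both libraries (32 points, 10136 genes compared), the log2 level of Mdk was most like those of Cdc16 (Pearson r = 0.91), Ppa1 (0.90) and Pou3f2 (0.89), and that of Ptn most like Stard13 (0.94), Sash1 (0.91) and Emc7 (0.91). Ptprz1 was most like Dbx2, 2810459M11Rik and Slitrk2 (each 0.90), Sdc2 like Gpx8 (0.94), Atp1b2 (0.89) and Axl (0.88), and Sdc4 like Pbxip1 (0.92), Notch2 (0.90) and Slc9a3r1 (0.88). The remaining receptors had nearest genes at 0.82 (Sdc3, Rbbp6), 0.87 (Ncl, Hnrnpk) and 0.85 (Lrp1, Rab34). Among the members themselves, r was 0.60 between Mdk and Ptprz1, -0.23 between Mdk and Ptn, 0.66 between Ptn and Sdc2 and -0.59 between Ptn and Ncl. These values describe types that share libraries and depth and carry no test.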

How the data were processed

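Live GFP+ cells from pooled dentate gyri were profiled with 10x Genomics 3′ v3 chemistry, and the deposited files hold UMI counts per gene and cell, which the authors made with Cell Ranger 3.0.2 on GRCm38/mm10. Each table was assigned to its condition by the cell barcodes that the study lists (356 of 356 for Control, 320 of 320 for TBI, 0 in the other table). The 8 genes and all lists were chosen with earlier results of these data known.

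Cells were kept if they had 200 or more genes and a log UMI count no further than 3 median absolute deviations from the median (3049 of 3086 Control and 5036 of 5081 TBI), with 24629521 and 31503415 UMIs. Clustering followed the study's methods in Seurat 5.3.0 with R 4.3.3: integration by canonical correlation analysis, 2000 variable genes, 20 components and resolution 3, and for the astroglial and neuronal lineage 16 components and resolution 0.8. Malat1, the 8 genes and the 34 pathway genes were kept out of the variable genes. Clusters were named from fixed marker lists, leading genes first, an order adopted after the clusters were seen, so names and shares may differ from those of the study. Scrublet (scanpy 1.11.5) marked doublets, which were left in.

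Levels carry exact Poisson, ratios exact conditional binomial, and shares Clopper-Pearson 95% intervals. Named pathway genes were the highest in each major population and those past the 1.5-fold limit in the lineage. Genes alike in pattern were the 3 with the highest Pearson correlation among genes with at least 500 UMIs. Positions came from GENCODE M21. Scripts were tested on simulated counts. Other cell filters, cluster settings, totals, depths and ways of averaging were tried.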

Additional observations from a re-analysis of the deposited data

Results flagged for a closer look

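3 of the 8 genes had TBI to Control ratios past the 1.5-fold limit, with intervals beyond counting error, in opposite directions in different populations, and the difference between populations was not tested, since each condition is 1 library. Ptn had log2 ratios of 0.90 in OPC, 1.95 in smooth muscle cells and 1.31 in Reln neurons, against -1.71 in late neuroblasts and -1.52 in immature granule neurons. Sdc4 had -1.14 in mural cells and 1.48 in microglia. Within the mural types Sdc4 was at 212 and 142 CPM in smooth muscle, 41.6 and 32.3 CPM in pericytes and 73.9 and 172 CPM in fibroblast-like cells. It was not called in any of these types taken singly. Lrp1 had 0.69 in OPC and -0.93 in fibroblast-like cells. Of all genes, 15.6% were called higher and 10.9% lower in OPC, 10.8% and 5.21% in smooth muscle, and 14.4% and 13.5% in fibroblast-like cells. The shares were 6.74% and 4.81% in mural cells, 4.47% and 5.23% in microglia, and 3.49% and 2.55% in Reln neurons. They were 0.969% and 1.68% in late neuroblasts and 1.25% and 1.82% in immature granule neurons. How many of all genes had such opposite calls was not counted. In the OPC led by OPC markers the ratios of Ptn and Lrp1 were 0.08 and -0.04, so the call in OPC and with it the opposite directions of Lrp1 were lost. Without doublets the ratio of Ptn in Reln neurons was -0.019.

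Of these, the ratio of Ptn in smooth muscle cells kept its call in 10 of 10 alternative settings, with values of 1.44 to 2.19, and was 2.22 without the 2 highest cells of each library. It was 1.87 and 1.09 in the 2 smooth muscle clusters taken singly. In the first cluster, pericyte markers summed to 2075 CPM in Control and 7109 CPM in TBI. In the second they summed to 15119 and 23351 CPM, beside 14917 and 7771 CPM of smooth muscle markers. The part of pericyte transcripts in the Ptn ratios was not tested. Sdc4 in microglia kept its call in 9 of 10, since it could not be counted after thinning, ranged from 1.33 to 1.67 and was 1.78 without the 2 highest cells. Ptn in immature granule neurons kept its call in 2 of 10, and in late neuroblasts in 7 of 10. The late neuroblast call was lost without called doublets, at -0.58. In both types a few Control cells held much of the Ptn. Without the 2 highest cells of each library the ratios were -1.11 in immature granule neurons and -0.87 in late neuroblasts.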

How the results depend on the processing

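No paired analysis was possible because each condition is 1 library, and for the same reason no replicate could be left out. Over 57 log2 ratios and 15 alternatives, 568 of 640 values stayed within the counting interval of the reported one and 65 moved outside it. The other 7 belonged to called ratios and changed sign. Changes of sign of ratios that had not been called were not counted separately. Among the called ratios, the sign changed in the OPC led by OPC markers for Ptprz1 (-0.022), Sdc3 (-0.20) and Lrp1 (-0.039). In Reln neurons the sign changed for Mdk (-0.15 without integration, -0.40 without doublets) and Ptn (-0.33 without integration, -0.019 without doublets). The division of the OPC, the pericytes alone, the smooth muscle clusters alone and the removal of the 2 highest cells were alternatives chosen after seeing the data.

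The 6 member pairs called higher were 2 with cells thinned to 2000 UMIs, and the 1 called lower was 2 without integration, at resolution 1.0 or without doublets, and 0 after thinning. Of the pathway genes, 4 pairs were higher, 2 at resolution 1.0 and 0 after thinning, and 2 were lower, 6 with the mean over cells and 1 after thinning. Thinning removes UMIs, so fewer pairs could be counted. The share of NSC with an Mdk UMI was 67.4% at 2000 UMIs, 47.9% at 1000 and 97.1% unthinned. For astrocyte-like cells it was 91.7%, 79.4% and 89.9% for Ptn and 92.9%, 78.4% and 89.1% for Ptprz1. Sdc3 in mural cells kept its call in 7 of 10 settings (log2 ratio 0.41 to 0.84), and Mdk in stem-like astroglia in 6 of 10 (0.024 to 0.72). The cause of the other changes was not tested. Depth limits Sdc2, Sdc3 and Sdc4 most, with fewer than 100 UMIs in many types.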
